A study of Oryza sativa with 12 samples.

Results

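Florets of the Ugp1-cosuppressed rice line TGMS-Co27 grown at high temperature (Co27HT) were set against florets of the wild-type variety H1493 grown at the same site (H1493HT), with 3 arrays of each line. The members of this comparison are the probe sets of the Affymetrix rice array other than the AFFX controls, 57258 in all. Results rest mainly on the 24891 probe sets called bright here, whose log2 signal, averaged over the 12 arrays of the series, reached 6, and the others are called dim. TGMS-Co27 is 1 transgenic line in which a construct made from Ugp1, expressed too strongly, silences Ugp1 itself in an H1493 background. Both lines were field grown to the meiosis stage at a daily mean of 28°C, when TGMS-Co27 is male sterile. The series also holds both lines at 20°C (Co27LT and H1493LT, 3 arrays each), when TGMS-Co27 is fertile. These were grown at another site in another season, with shorter days. Transgenesis, line history and loss of Ugp1 activity are all shared by every TGMS-Co27 array and cannot be told apart. Whole inflorescences were used, so fewer cells of a type and less RNA per cell cannot be told apart either.

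UDP-glucose pyrophosphorylase makes UDP-glucose, the sugar donor for sucrose, cellulose and callose. Callose, a beta-1,3-glucan, surrounds the pollen mother cells during meiosis, and the tapetum around them feeds the developing pollen and supplies its wall. In cosuppression, transcripts of a transgene bring about silencing of the transgene and of its endogenous relative together.

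Ugp1 (LOC_Os09g38030) was lower in every Co27HT array than in any H1493HT array. Its log2 signals were 11.36, 11.39 and 11.44 in Co27HT, against 13.42, 13.43 and 13.36 in H1493HT. The groups lay far apart for the spread within them (SD 0.04 in both, n = 3 each). The difference was -2.01 ± 0.07 (SE) on the log2 scale, a 4.02-fold lower signal (limma, Benjamini-Hochberg adjusted p = 4.5e-06). At low temperature the line difference was smaller, with 12.89 in Co27LT and 13.61 in H1493LT, and the gap between the 2 differences was itself past the threshold (-1.29 ± 0.10, adjusted p = 0.00109). Whether this probe set also reads the transgene's transcripts is not given in the sources used here. UGP2 (LOC_Os02g02560), the second gene for the enzyme, gave a dimmer signal of 5.30, 5.37 and 5.41 in Co27HT, against 7.12, 6.37 and 6.76 in H1493HT. Its groups did not overlap and its difference was -1.39 ± 0.28 (adjusted p = 0.0384), a call that was lost when any single high-temperature array was left out.

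The other checks bear on whole arrays. Among 64 reporter control probe sets, which the files do not annotate with a gene, 2 were bright and both were called higher in Co27HT. The first read 14.08, 14.13 and 14.18 in Co27HT, against 3.31, 3.88 and 0.40 in H1493HT, and the second read 8.68, 9.05 and 9.22 in Co27HT, against 2.31, 2.86 and 1.85 in H1493HT. The lines were thus separated by these reporters as their labels say. The first reporter also read 8.18, 8.48 and 8.15 on the H1493LT arrays, far above H1493HT. Whether those samples hold material of the transgenic line was not tested. Every low-temperature line difference and every change with temperature given below rests on them, and the counts of calls are given without them too. Array medians were 5.51 to 5.74 in Co27HT and 5.45 to 5.60 in H1493HT, and the 3′ minus 5′ signal of actin, a sign of RNA integrity, was 2.59 to 2.69 in Co27HT and 2.62 to 2.65 in H1493HT. That of GAPDH was 2.12 to 2.56 in Co27HT and 1.82 to 2.21 in H1493HT, and that of cyclophilin 0.76 to 0.86 in Co27HT and 0.86 to 1.03 in H1493HT. The 28S rRNA control was higher in Co27HT (12.98 to 13.01) than in H1493HT (12.43 to 12.58). The part of these controls in the results was not tested. Over the bright probe sets the arrays correlated at 0.983 to 0.985 within Co27HT, at 0.986 to 0.987 within H1493HT and at 0.965 to 0.976 between the lines.

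Few genes differed by a large amount between the lines at high temperature, and at the threshold used more were lower in Co27HT than higher. A probe set was called when its adjusted p over all 57258 was under 0.05 and its log2 difference at least 1 in size. Among the bright probe sets 196 were called (0.787%), of which 51 were higher (0.205%) and 145 lower (0.583%) in Co27HT. The median size of the difference over all bright probe sets was 0.19, and 98.4% of them differed by less than 1. Smaller differences were common: 7095 of them had an unadjusted p under 0.05, and on 9257 (37.2%) the arrays of the lines did not overlap, as on all 196 called. The higher calls had a median of 2.07, with 14 over 4, and the lower calls one of -1.18, with none beyond 4 in size. In 20 of the 51 higher calls the H1493HT mean was below 6, so that they counted as bright through the other groups and their sizes are not exact, and in 31 of the 145 lower calls the Co27HT mean was. Without H1493HT replicate 1 the lower calls numbered 86, and without the 3 H1493LT arrays 76. Both omissions also leave fewer degrees of freedom. The second omission ended 8 calls named here, those of UGP2, OsMADS14, LOC_Os03g19560, LOC_Os08g03550, HSP24.1, HSFB2C, DAO and PBZ1. With only the 6 high-temperature arrays in the fit, which leaves fewer degrees of freedom, 15 higher and 2 lower calls were made. Of 44 called probe sets named by the rules used here 9 kept their call then, those of Ugp1, LOC_Os01g36850, LOC_Os04g02490, LOC_Os03g43100, LOC_Os07g06834, LOC_Os08g17500, NAS3, LOC_Os03g58100 and the second reporter. At the fold of 2 and unadjusted p under 0.05 that the methods use, 111 bright probe sets (0.446%) were higher and 212 (0.852%) lower. Exactly 1 gene was annotated for 30 of the higher and 91 of the lower probe sets.

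**Figure D1:**
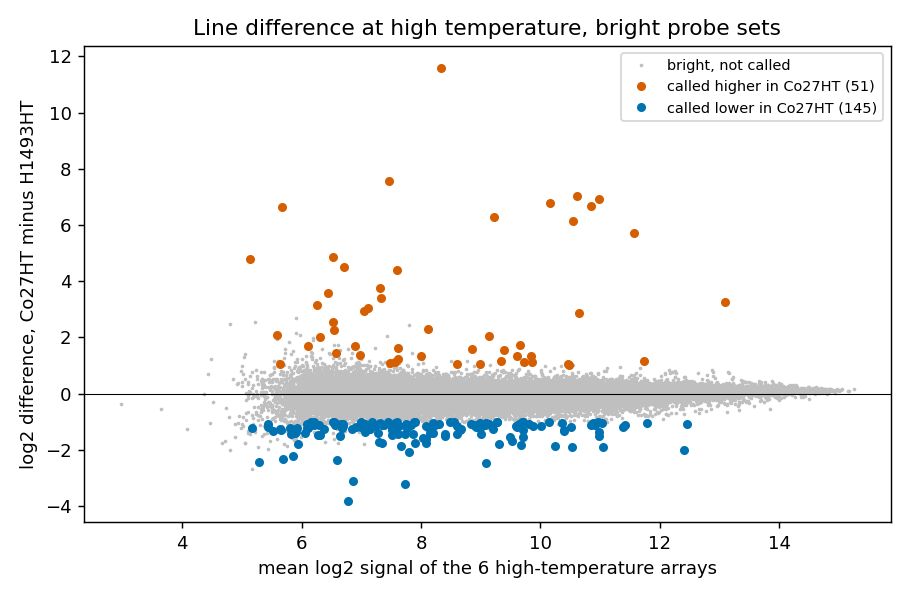
Log2 difference between Co27HT and H1493HT (vertical axis) against the mean log2 signal of the 6 high-temperature arrays (horizontal axis), 1 point per bright probe set. The 51 probe sets called higher reach a difference of 11.60, that of a reporter control, while the 145 called lower reach -3.81.

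The named genes with the largest excess in Co27HT, most without a described function, were higher in Co27LT than in H1493LT too. LOC_Os01g36850, described as a Pong-type transposon protein, read 11.09, 11.29 and 11.37 in Co27HT, against 3.34, 4.08 and 3.65 in H1493HT. Its difference was 7.55 ± 0.24 (adjusted p = 1.39e-06), and at low temperature it was 6.94. Signals near background, as for this gene in H1493HT, make that side inexact, so the sizes of such differences are not exact. LOC4331398, an undescribed gene singled out after its values were seen, carried 2 probe sets with differences of 7.02 and 6.92, and its means on the first were 14.12 in Co27HT and 7.10 in H1493HT. LOC_Os04g02490 (13.54, 13.60 and 13.51 in Co27HT, against 7.05, 6.75 and 6.55 in H1493HT) differed by 6.76 ± 0.39, and LOC_Os03g43100 (12.35, 12.34 and 12.42 in Co27HT, against 6.04, 6.06 and 6.13 in H1493HT) by 6.30 ± 0.41. For these last 2 probe sets the locus number in the study's gene lists and the gene record in the array's annotation lie on different chromosomes, so the gene behind each is uncertain. The gene record of the LOC_Os03g43100 probe set has another bright probe set, which gave 0.14 (adjusted p = 0.763). LOC_Os07g06834, without a described product, read 13.53 to 13.70 in Co27HT and 7.31 to 7.71 in H1493HT, a difference of 6.14 ± 0.13 (adjusted p = 1.09e-07). The change of the line difference with temperature passed the test for none of them, with adjusted p of 0.152 to 0.947 over LOC_Os01g36850, LOC_Os04g02490, LOC_Os03g43100 and LOC_Os07g06834, and of 0.289 and 0.273 for the probe sets of LOC4331398.

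LOC_Os08g17500, LOC_Os07g35480 and GLU14 are enzymes named here for the size of their excess, and none of the 46 bright genes on the cell wall list was called higher. LOC_Os08g17500, described as a cinnamoyl-CoA reductase, the entry step of lignin synthesis, read 9.97, 9.70 and 9.67 in Co27HT, against 4.99, 5.25 and 5.96 in H1493HT. It was higher by 4.38 ± 0.40 (adjusted p = 0.00152) and by 4.70 at low temperature. LOC_Os07g35480, a glucan endo-1,3-beta-glucosidase, belongs to the enzymes that split beta-1,3-glucans such as callose. Its signals were 9.06, 8.92 and 9.07 in Co27HT, against 5.77, 6.13 and 4.97 in H1493HT, and the difference was 3.39 ± 0.57 (adjusted p = 0.0222). That call was lost without replicate 1 or 3 of H1493HT and without replicate 1 or 2 of Co27HT, at differences of 3.07 to 3.47. The endoglucanase GLU14 (LOC_Os02g03120), which acts on beta-1,4-glucans, read 6.54, 6.50 and 6.84 in Co27HT, against 4.603, 4.98 and 4.09 in H1493HT (2.07 ± 0.25, adjusted p = 0.00586). At low temperature GLU14 differed by only 0.23, and the change of its line difference with temperature fell just short of the threshold (1.84 ± 0.35, adjusted p = 0.0523).

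For NAS3 and a thiamine gene the excess in Co27HT was larger than any line difference at low temperature, by the test of the change itself. NAS3 makes nicotianamine, a chelator that carries iron and other metals inside the plant. It read 10.26, 10.18 and 10.06 in Co27HT, against 8.05, 8.07 and 8.19 in H1493HT. Every Co27HT array lay above every H1493HT array, by 2.06 ± 0.12 or 4.17-fold (adjusted p = 0.000124). At low temperature NAS3 was 0.45 lower in Co27LT than in H1493LT, which was not past the threshold, and the 2 line differences differed by 2.51 ± 0.17 (adjusted p = 0.000594). LOC_Os03g47610, described as the thiamine synthesis protein thiC, which makes the pyrimidine part of the vitamin, read 10.02, 10.30 and 10.19 in Co27HT, against 8.59, 8.72 and 8.52 in H1493HT. Its difference was 1.56 ± 0.10 (adjusted p = 0.000223) and the interaction 1.85 ± 0.15 (adjusted p = 0.00109). Of the 49 metal genes measured 32 were bright, and NAS3 was the only one called. NRAMP5, a manganese and cadmium transporter of rice, had a difference of 0.84 that stayed under the size required (adjusted p = 0.0107). The second bright probe set of LOC_Os03g47610 gave 0.79 (adjusted p = 0.0711).

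Other higher genes of known kind were few. HSP16.9A, a small heat shock protein of the cytosol, read 10.72, 10.44 and 10.37 in Co27HT, against 8.39, 9.11 and 8.90 in H1493HT. The gap was 1.71 ± 0.21 (adjusted p = 0.00696), and its low-temperature difference of 0.62 was not past the threshold (adjusted p = 0.31). The change of its line difference with temperature did not pass either (1.095 ± 0.302, adjusted p = 0.157). LOC_Os03g58100, a pentatricopeptide repeat protein of the family that processes organelle RNA, was tightly measured at 9.69, 9.59 and 9.65 in Co27HT, against 8.04, 8.05 and 8.08 in H1493HT. It differed by 1.59 ± 0.09 at high temperature and by 1.74 at low temperature. PBZ1, a pathogenesis-related protein, was higher by 1.01 ± 0.16 (adjusted p = 0.0187), and LOC_Os01g01600, described as related to ethylene-responsive proteins, by 1.46 ± 0.18 (adjusted p = 0.00688). The call of PBZ1 was lost without Co27HT replicate 1 (0.89), H1493HT replicate 1 (0.93) or H1493HT replicate 2 (1.04). LOC_Os05g41940, a CACTA-type transposon protein, was higher by 2.30 ± 0.31 (adjusted p = 0.00977), and LOC_Os02g19700, a hypothetical protein, by 3.76 ± 0.37 (adjusted p = 0.00231).

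**Figure D2:**
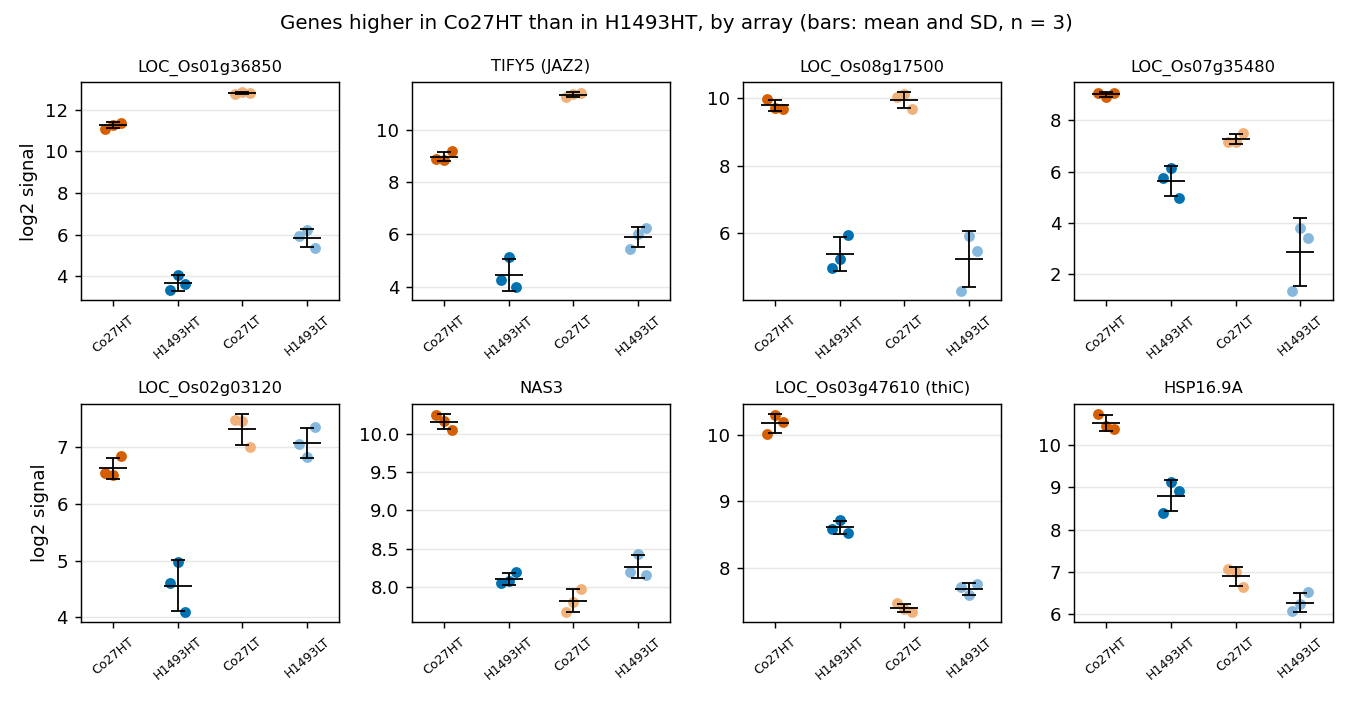
Log2 signal on each array for 8 genes called higher in Co27HT, in the order Co27HT, H1493HT, Co27LT and H1493LT, with the mean and SD of 3 arrays as bars. The 4 genes of the top row were in excess at both temperatures, while NAS3 and thiC lay between 10.02 and 10.30 in Co27HT and at or below 8.72 in the other 3 groups.

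Of the 21 gene lists, that of photosynthesis and chlorophyll held the most lower calls. Photosystems and chlorophyll enzymes are typical of green tissue, and which parts of the inflorescence gave their signals was not tested. Of 19 genes on the photosynthesis and chlorophyll list 17 were bright, 3 were called lower and none higher, and 13 of the 17 had a negative difference. The median over the bright members was -0.29, beside -0.01 over all 14677 genes measured with a bright probe set, of which 23 were called higher and 70 lower. CAB2R, a light-harvesting chlorophyll protein, read 9.73, 9.54 and 9.44 in Co27HT, against 11.26, 11.52 and 11.69 in H1493HT. The difference was -1.92 ± 0.12 (adjusted p = 0.000203), and it was -0.55 at low temperature, where the signal was over 13.70 in every array. A second probe set of CAB2R gave -0.98, short of the size required. At low temperature that probe set was called lower, at -1.06 (adjusted p = 0.00132), and its line difference changed by only 0.08 (adjusted p = 0.883). The probe sets of CAB2R thus disagreed on a change with temperature. PORA, the light-dependent protochlorophyllide reductase, read 9.86, 9.67 and 9.64 in Co27HT, against 10.998, 11.15 and 11.03 in H1493HT (-1.33 ± 0.09, adjusted p = 0.000223). CAO, which makes chlorophyll b, read 8.26, 8.49 and 8.24 in Co27HT, against 9.44, 9.66 and 9.45 in H1493HT (-1.18 ± 0.10, adjusted p = 0.00145).

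The rest of the list was uneven. The light-harvesting protein RCABP89, the photosystem I subunit PSAG and GLK1, a transcription factor of chloroplast development, gave -0.997, -0.997 and -0.99, with adjusted p of 0.0046, 0.0353 and 0.000616 but differences a little under 1 in size. PORB (-0.23), the small Rubisco subunit RBCS (-0.12) and the magnesium chelatase subunit CHLH (0.09) did not pass. Rubisco activase had 4 bright probe sets, of which 1 was called at -2.22 and the others gave -0.60, -0.56 and -0.41. LOC4333004, undescribed and singled out after its values were seen, was lower on 4 called probe sets (-1.89, -1.80, -1.67 and -1.52), and a further one gave -1.63 at an adjusted p of 0.0755. The 5 green-tissue markers measured are themselves genes of this list, so they give no separate check. Their summed signal was 11.85 to 11.93 on the log2 scale in Co27HT, against 12.79 to 12.95 in H1493HT, with CAB2R and PORA called lower, none at 0 and a median of -0.56. The part of tissue make-up in these differences was not tested.

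LHY, a MYB factor of the circadian clock expressed around dawn, was the only one of 9 bright clock and photoreceptor genes called. It read 10.64, 10.84 and 10.90 in Co27HT, against 12.01, 11.93 and 11.97 in H1493HT, which was lower by 1.17 ± 0.09 (adjusted p = 0.000536). At low temperature it averaged 13.94 in Co27LT and 13.96 in H1493LT, and the change with temperature was past the threshold (-1.15 ± 0.13, adjusted p = 0.0053). PRR73 and PRR95, repressors of the same clock, were at -0.71 and -0.41, with adjusted p of 0.0282 and 0.0334. GI and the phytochromes PHYA, PHYB and PHYC lay between -0.01 and 0.25. The hour of harvest is not stated in the study's methods.

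BC1L9, a COBRA-like protein of the family that orders cellulose in the wall, was the only one of 46 bright cell wall genes called. Its brighter probe set read 6.86, 7.17 and 6.996 in Co27HT, against 8.85, 8.76 and 8.72 in H1493HT, with a difference of -1.77 ± 0.10 (adjusted p = 0.000109). A second probe set gave -2.44 ± 0.26. At low temperature both lines were near 13 on the brighter probe set (13.05 in Co27LT and 12.85 in H1493LT), and the interaction was -1.96 ± 0.14 (adjusted p = 0.00072). The median of the cell wall list was 0.12, and its other bright members lay between -0.45 and 0.86 (cellulose synthases, cellulose synthase-like proteins, expansins and xyloglucan enzymes).

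Of 7 bright splicing factors 1 was called, U2AF35A, and the other genes of this paragraph were taken by size and not from a list. U2AF35A, the small subunit of the factor that marks the 3′ splice site, read 7.14, 7.33 and 7.16 in Co27HT, against 9.08, 8.89 and 8.88 in H1493HT. It was lower by 1.74 ± 0.10 (adjusted p = 0.000136), and by 0.90 at low temperature. The other 6 splicing factors lay between -0.23 and 0.13, including the large subunits U2AF65A (0.08) and U2AF65B (0.01). LOC_Os08g27824, of the NOL1/NOP2/sun family of RNA methyltransferases, read 7.36, 7.15 and 7.32 in Co27HT, against 8.97, 8.92 and 8.83 in H1493HT (-1.63 ± 0.09, adjusted p = 0.000102). LOC_Os03g59090 (retrotransposon protein, -1.45 ± 0.13), LOC_Os05g01140 (methyltransferase, -1.31 ± 0.14), LOC_Os09g29060 (-1.30 ± 0.13), LOC_Os10g21940 (-1.30 ± 0.10) and LOC_Os03g07590 (-1.22 ± 0.09) were lower as well. LOC_Os05g01140 had another bright probe set, which gave 0.12. LOC_Os03g19560, a tetratricopeptide repeat protein, was lower by 1.41 ± 0.22 (adjusted p = 0.0186) and LOC_Os08g03550 by 1.25 ± 0.25 (adjusted p = 0.04). The call of LOC_Os03g19560 was lost without replicate 1 or 2 of H1493HT or replicate 1 of Co27HT, and that of LOC_Os08g03550 without any of 5 arrays.

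Jasmonate is a hormone needed for anther opening, and its JAZ proteins (also named TIFY) repress the response until the hormone is perceived. Of 16 bright genes of jasmonate signalling, 1 was called higher and 1 lower. TIFY5 (JAZ2) read 8.90, 8.84 and 9.17 in Co27HT, against 4.24, 5.13 and 3.99 in H1493HT, a difference of 4.51 ± 0.29 (adjusted p = 0.000203) that was 5.43 at low temperature. TIFY11e (JAZ13) read 6.36, 6.56 and 6.50 in Co27HT, against 8.11, 8.41 and 8.12 in H1493HT (-1.74 ± 0.13, adjusted p = 0.000449), and it had the opposite sign at low temperature (2.43). The 2 line differences of TIFY11e differed by -4.18 ± 0.18 (adjusted p = 0.000123). The receptor genes COI1A, COI1B and COI2 lay between -0.00 and 0.16, and none of 11 bright genes of jasmonate synthesis was called.

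**Figure D3:**
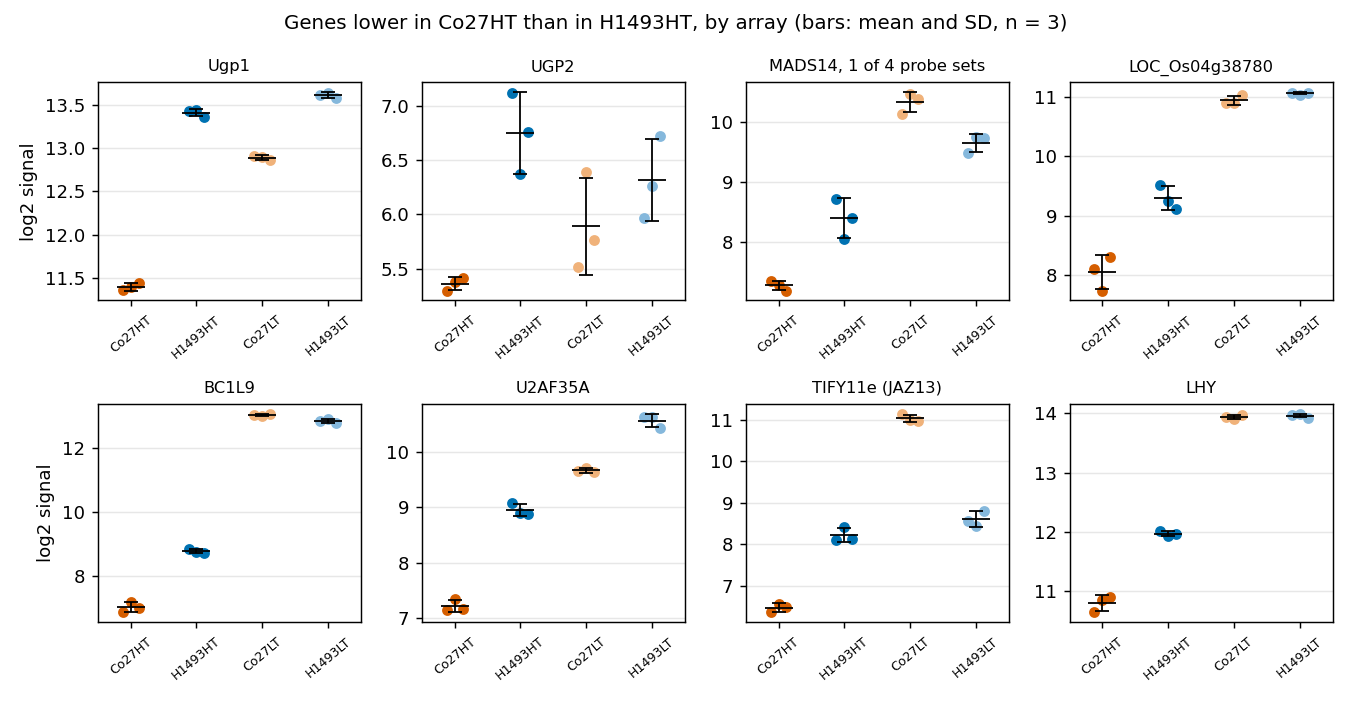
Log2 signal on each array for 8 genes lower in Co27HT than in H1493HT, in the order Co27HT, H1493HT, Co27LT and H1493LT, with the mean and SD of 3 arrays as bars. In each panel, as in all 145 lower calls, the Co27HT arrays lie below the H1493HT arrays, and for TIFY11e Co27LT lies above H1493LT. The lines also did not overlap on 37.2% of all bright probe sets, and genes named by size had to show no overlap.

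Genes that the study listed for pollen development were looked at one by one, and since it chose them on these samples they are not independent evidence of direction. OsMADS14 (LOC_Os03g54160), a floral meristem and organ identity factor, read 7.35, 7.27 and 7.18 in Co27HT, against 8.71, 8.05 and 8.39 in H1493HT on the probe set listed there (-1.12 ± 0.17, adjusted p = 0.0168). Its 3 brighter probe sets gave -0.17, -0.16 and 0.08, none past the threshold, so the probe sets of this gene disagreed. The call was lost without H1493HT replicate 1 (-0.95) or Co27HT replicate 2 (-1.12). LOC_Os04g38780, described as a transcription factor, read 8.10, 7.73 and 8.30 in Co27HT, against 9.51, 9.24 and 9.12 in H1493HT on its bright probe set (-1.25 ± 0.15, adjusted p = 0.00688). That probe set was named for its size. The probe set taken from the study's list for this gene was dim and called present on 0 arrays. It gave -2.28 and did not pass (adjusted p = 0.233).

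The other listed genes gave mostly dim signals. For LOC_Os07g22850, described as a chalcone or stilbene synthase, the signals were 1.75, 2.62 and 2.92 in Co27HT, against 5.48, 5.88 and 6.13 in H1493HT (-3.40 ± 0.48, adjusted p = 0.0121). That probe set was called present on 0 of 12 arrays, and raising all values to at least 5 reduced the difference to -0.83. The dihydroflavonol reductase LOC_Os01g03670 (-1.87), the callose synthase domain protein LOC_Os06g08380 (-2.59) and a dim probe set of IRX9L (LOC_Os01g48440), of xylan synthesis (-1.53), did not pass the test, with adjusted p of 0.257, 0.282 and 0.272. A brighter probe set of IRX9L gave -0.06. The zinc finger gene ZOS8-11 (LOC_Os08g40560) had 4 probe sets that disagreed in sign, with -2.28 and -0.87 on the dim ones and 0.29 and 0.14 on the bright ones, none past the threshold.

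No gene on the lists for male cells, which hold genes by symbol, was called. LOC_Os07g22850, listed by the study for pollen development and called above on a dim probe set, is not on them. Of 10 bright tapetum and pollen wall genes none passed, and the median was -0.01. MSP1, the receptor kinase that limits the number of sporogenous cells, had a difference of 0.49 (adjusted p = 0.0193), and the pollen wall hydroxylase CYP703A3 of -1.10 (adjusted p = 0.0607). The tapetum regulators TDR, EAT1 and TIP2 lay at 0.15, 0.02 and 0.01. Of 12 meiotic pairing and crossover genes, all bright, none was called either, and 10 were below 0 with a median of -0.28. MSH5 and PAIR2 were at -0.56 and -0.38, with adjusted p of 0.0758 and 0.0956, while MEL1, an Argonaute of germ cells, was at 0.22. The summed signal of 8 measured meiocyte markers was 13.05 to 13.15 on the log2 scale in Co27HT and reached 13.11 in H1493HT, so the lines overlapped. The median difference of these markers was -0.39, and MEL1, the brightest of them, was at 0.22. The sum of 9 tapetum markers was 13.08 to 13.15 in Co27HT and 12.89 to 12.94 in H1493HT. It lay higher in Co27HT while the median of its members was -0.12, and MSP1, with 12.43 to 12.52 in Co27HT and 11.93 to 12.03 in H1493HT, was the brightest of them. Matching by name gave 6 genes for the 5 markers of stamen and lodicule. These 6 summed to 14.57 to 14.67 in Co27HT and 14.54 to 14.61 in H1493HT (median difference 0.02). The 2 carpel markers (median 0.38) summed to 10.36 to 10.52 in Co27HT and 9.90 to 10.14 in H1493HT, and the 4 of palea and lemma (median 0.11) to 15.12 to 15.16 in Co27HT and at most 15.08 in H1493HT. None of these markers was at 0 on a high-temperature array.

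The other lists held at most 2 calls each. Among 21 bright heat shock proteins HSP24.1, of the mitochondrion, was lower by 1.15 ± 0.18 (adjusted p = 0.0189) beside the higher HSP16.9A, and among 17 heat stress transcription factors HSFB2C was lower by 1.14 ± 0.20 (adjusted p = 0.0259). DAO, a dioxygenase that oxidises auxin, was lower by 1.13 ± 0.21 (adjusted p = 0.0324), and CPS1, the first committed enzyme of gibberellin synthesis, by 1.01 ± 0.11 (adjusted p = 0.00441). Each of these 4 lower calls was lost without at least 1 of the high-temperature arrays, at differences of -1.17 to -0.95. LOC_Os04g54230, described as a wound-induced protein, was lower by 2.37 ± 0.14 (adjusted p = 0.000124), with 5.35, 5.67 and 5.19 in Co27HT, against 7.77, 7.66 and 7.89 in H1493HT.

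Nothing was called among 23 bright genes of sucrose, starch and UDP-glucose metabolism (median -0.10), a list that leaves out Ugp1 and UGP2, both called lower above. Nothing was called either among 18 RNA silencing genes (0.02), 22 floral MADS genes at 1 probe set a gene (0.03), 46 cell cycle and replication genes (0.09), 42 cold and calcium signalling genes (0.05), 21 peroxidases and redox genes (0.01) and 46 transporters (-0.00). Among sucrose synthases, which can make UDP-glucose from sucrose, SUS2 read 13.97 to 14.08 in Co27HT and 13.70 to 13.81 in H1493HT, a difference of 0.27 (adjusted p = 0.117). SUS1 differed by 0.40 (adjusted p = 0.0391), and UGE-1, a UDP-glucose epimerase, by -0.70 (adjusted p = 0.0357), both under the size required. A second bright probe set of SUS1 gave 0.59 (adjusted p = 0.00686), also under that size. Argonaute and Dicer genes, which carry out RNA silencing, lay with the rest of their list between -0.42 and 0.29. The sucrose transporter gene named SUT2 or SUT2M had 0.73 (adjusted p = 0.0129).

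**Figure D4:**
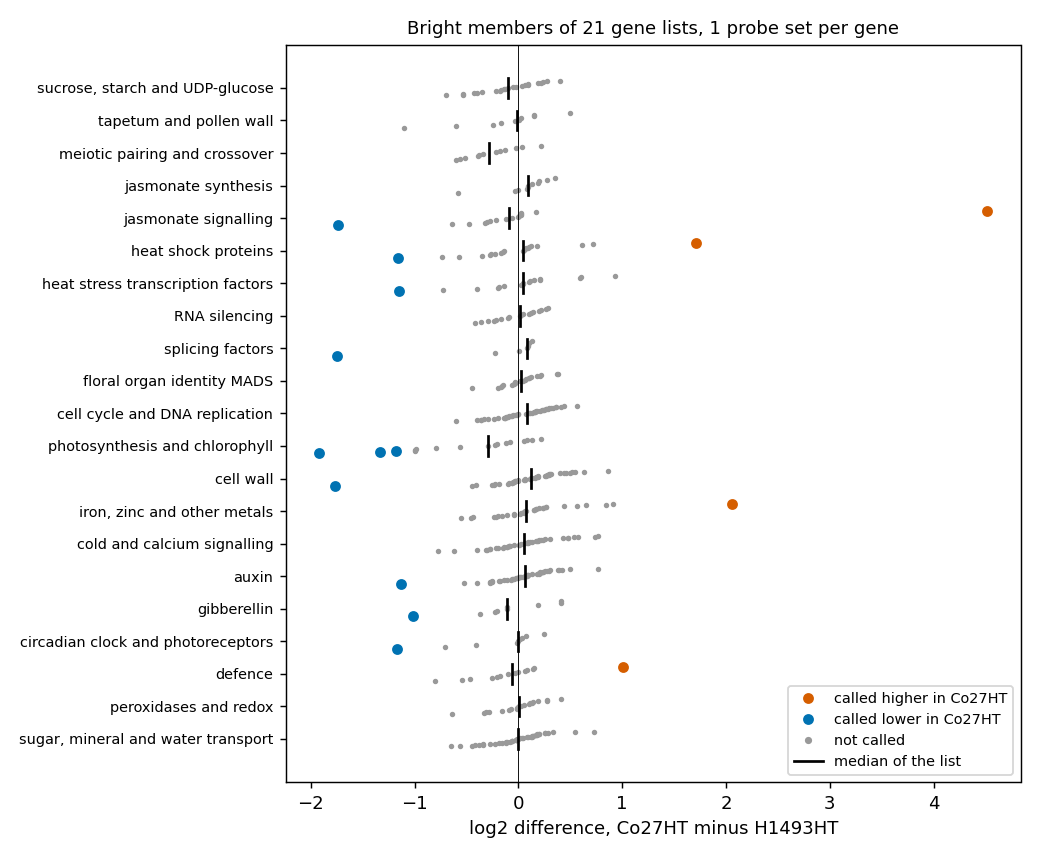
Log2 difference between Co27HT and H1493HT for the bright members of 21 gene lists, 1 probe set per gene, with the list median as a black bar. Medians lie between -0.29 and 0.12, and the coloured members, those called, include 3 lower ones on the photosynthesis and chlorophyll list.

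The same probe sets were then read at low temperature. There Co27LT was called higher than H1493LT on 193 bright probe sets (0.775%) and lower on 107 (0.43%). Of the 51 called higher in Co27HT, 31 were also called higher in Co27LT over H1493LT and none was called lower. Of the 145 called lower, 12 were also called lower at low temperature, 4 were called higher and 129 were not called. A call at one temperature only does not show that the lines differed more there, so the change of the line difference was tested itself. It passed for 6 of the 51 and 43 of the 145, beside 277 of all bright probe sets (1.11%), and these interaction values use the same high-temperature arrays that gave the calls. The 4 of opposite sign included TIFY11e and LOC_Os08g36920, an AP2-domain factor named after its values were seen, at -1.08 in Co27HT over H1493HT and 2.12 in Co27LT over H1493LT. A further pair of genes, undescribed and singled out after their values were seen, were low in TGMS-Co27 at both temperatures. LOC4333281 averaged 6.11 in Co27HT and 9.34 in H1493HT, and LOC4329395 averaged 7.84 in Co27HT and 10.32 in H1493HT, with low-temperature differences of -4.50 and -2.83.

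**Figure D5:**
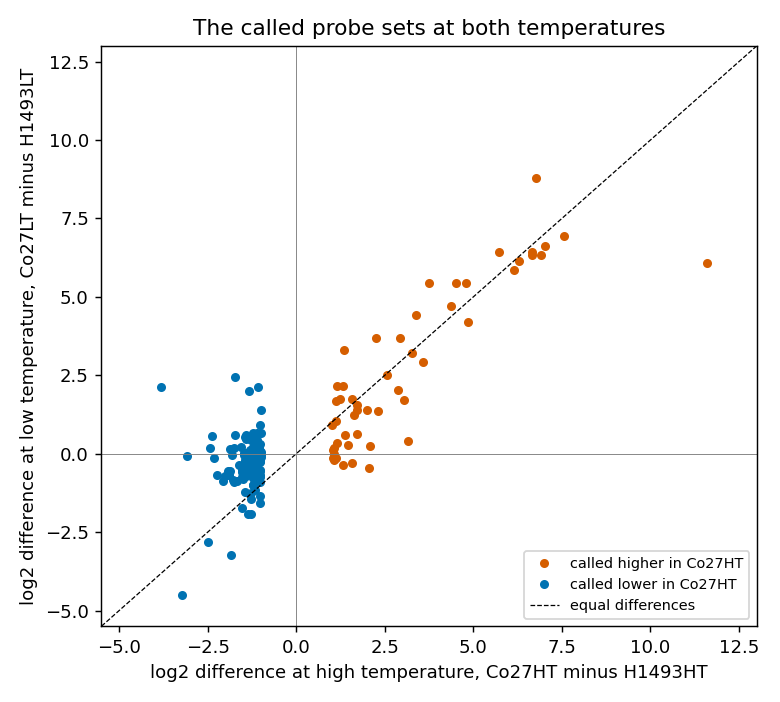
Line difference at low temperature (vertical axis, Co27LT minus H1493LT) against that at high temperature (horizontal axis, Co27HT minus H1493HT) for the 196 called bright probe sets, both in log2, with a dashed line where they are equal. Many of the 51 higher ones lie near the dashed line, whereas most of the 145 lower ones lie near 0 at low temperature, where 129 were not called.

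Among the dim probe sets 180 were called (0.556%), 96 higher (0.297%) and 84 lower (0.26%) in Co27HT. With them the calls over all 57258 came to 147 higher (0.257%) and 229 lower (0.4%). A mean over 12 arrays can hide a gene that is bright in 1 group: LOC4329864, chosen after its values were seen, averaged 1.98 in Co27HT and 8.22 in H1493HT. LOC_Os02g24134, described as a Sec1 family transport protein and chosen in the same way, averaged 7.35 in Co27HT and 1.86 in H1493HT. Its H1493HT arrays were scattered near background, at 0.26, 4.41 and 0.91. It averaged 6.58 in Co27LT, and its low-temperature difference of 3.37 was not past the threshold (adjusted p = 0.221).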

How the data were processed

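RNA of meiosis-stage florets (3 samples per line and temperature) was hybridised to Affymetrix rice arrays. Log2 signals from MAS5 and detection calls were deposited by the authors. Their methods name quantile normalization, but the arrays do not share one distribution, and on the linear scale the 2% trimmed mean of each is 496.7 to 497.6. The labels call the samples biological replicates without naming plants. Line differences were fitted here with limma 3.58.1 in R 4.3.3 (lmFit, contrasts.fit and eBayes on 4 group means and all 12 arrays). P-values were adjusted by Benjamini-Hochberg over 57258 probe sets after 123 controls were left out. The fit was also run on simulated arrays with independent noise around the H1493HT means. These lack the temperature differences of the data, and no result given here rests on them. The 12 call columns share one name, so they gave only the number of arrays called present. Genes came from the array's annotation (22436 probe sets with 1 gene), or for 380 from the study's gene lists, with no genome build stated, and 34347 had none. Lists held genes by symbol and each gene counted by its brightest probe set. Named were the study's pollen genes, up to 15 described genes per direction by size among called bright probe sets whose groups did not overlap, up to 6 called members per list or else the 2 brightest, and the reporter controls, while others are said to be chosen after their values were seen. Members and lists were chosen with earlier results of these data known. The number of arrays, 3 per group, limits precision.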

Additional observations from a re-analysis of the deposited data

Results flagged for a closer look

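In named genes called at high temperature the line difference there was set against that at low temperature in the same limma fit, and in 18 probe sets the 2 differed past the threshold. Over all bright probe sets 277 (1.11%) passed this test. Many of the named genes were chosen by the size of their high-temperature difference, and the test uses the same high-temperature arrays. The 18 are therefore not independent evidence of a change with temperature. Signs are those of the high-temperature difference minus the low-temperature one. The positive values were 2.51 for NAS3, 1.85 for LOC_Os03g47610 (thiC) and 5.52 for the first reporter control. The negative ones were -4.18 for TIFY11e, -1.29 for Ugp1, -2.62 and -1.96 for the probe sets of BC1L9, -1.37 for CAB2R and -1.15 for LHY. The second bright probe set of CAB2R gave 0.08 (adjusted p = 0.883). The same test gave -1.79 for the listed probe set of OsMADS14, -2.93 for LOC_Os04g54230, -1.88 for LOC_Os03g07590 and -1.42 for LOC_Os05g01140. Brighter probe sets did not show the change, with -0.15, -0.43 and 0.14 for OsMADS14 and 0.12 for LOC_Os05g01140, none past the threshold. The test also gave -1.33 for LOC_Os09g29060, -1.32 for LOC_Os10g21940, -1.26 for LOC_Os08g27824 and -1.20 for LOC_Os03g59090. The value of LOC_Os07g22850 was -3.81, on a probe set called present on no array. Temperature, day length, site and season cannot be told apart in these values.

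The first reporter control, outside the comparison of genes, averaged 14.35 in Co27LT and 8.27 in H1493LT, and the H1493LT level stands above the 2.53 of H1493HT. Its interaction value above rests on that signal. The second reporter averaged 9.92 in Co27LT and 3.49 in H1493LT. Whether the H1493LT samples hold material of the transgenic line was not tested, and all the values above that set the temperatures against each other rest on those arrays.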

How the results depend on the processing

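Ugp1 kept its call under every alternative run, at -2.11 to -1.98. The count of bright probe sets higher in Co27HT (51) was 15 with only the 6 high-temperature arrays, 94 with limma-trend and robust moderation, 95 with dim probe sets left out before the fit, 111 at the methods' threshold (fold of at least 2, unadjusted p under 0.05) and 147 with dim probe sets included. The count lower (145) was 2, 189, 194, 212 and 229 in the same order. With single arrays left out the higher count ranged over 38 to 63 and the lower over 86 to 202. Without the 3 H1493LT arrays, an alternative chosen after seeing the data that also leaves fewer degrees of freedom, they were 43 and 76. The 277 probe sets whose line difference changed with temperature became 471 with limma-trend, 515 with dim probe sets left out first and 465 with only probe sets present on at least 3 of 12 arrays, the last also chosen after seeing the data. Quantile normalization gave 59 higher and 156 lower calls and median centring 43 and 216, which moved the median of all probe sets to -0.08. Of 44 named probe sets called, 33 kept the call in every alternative that held them but the 6-array fit, 9 also in that fit, and none changed sign. A filter on calls among the 6 high-temperature arrays was not run, since the call columns cannot be assigned to arrays. Replicate numbers did not pair the samples (deviations of same-numbered arrays correlated at -0.10, 0.04 and -0.08), and with the replicate block the counts were 40 higher, 84 lower and 150 for the change with temperature. Signals near background limit the size of large differences.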
